A study of Mus musculus with 16 samples.

Results

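The genes described here mark dendritic cells, and 9 of them were taken by name: Siglech, Bst2 and Ccr9 for plasmacytoid dendritic cells, and Flt3, Itgax, Batf3, Zbtb46, Clec9a and Cd209a for conventional dendritic cells. A probe set was used where the array annotation gave a single gene symbol and that symbol was one of these. By this rule 8 of the 9 genes had a probe set, 15 probe sets in all, of 18193 named genes and 45037 probe sets on the array. Clec9a is named only and was not analysed here.

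RNA from 16 mouse samples was hybridised to Affymetrix expression arrays, in 3 groups. The wild-type group held 5 samples of splenic B cells from non-transgenic mice at 20 weeks of age, and the second group held 5 samples of splenic B cells from Eμ-xbp-1s mice of the same age. Both were taken from spleen with magnetic beads against B220. The third group held 6 samples of multiple myeloma (MM) that arose in Eμ-xbp-1s mice, described as tumors, with neither an age nor a cell sort named for them in the labels. The transgene places the cDNA of spliced XBP-1, a transcription factor of the unfolded protein response and of plasma cell differentiation, under an immunoglobulin VH promoter and the Eμ enhancer, with eGFP on the same transcript. Eμ is active in B lineage cells of all stages and in part of the T cells, and dendritic cells are not the cells it is built to target.

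Dendritic cells take up and present antigen to T cells. Plasmacytoid dendritic cells are known for secreting type I interferon on contact with viral nucleic acid, and they carry B220, the antigen used for the bead selection, on their surface. Conventional dendritic cells fall into a type 1, which depends on Batf3 and presents antigen to CD8+ T cells, and a type 2, which is served by Irf4 and presents mostly to CD4+ T cells. Development of each kind rests on the receptor tyrosine kinase Flt3.

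The start sites of 3 of the genes are shown and were not related to their expression. The genes are Batf3, the transcription factor that passed the test, Itgax, the integrin with the brightest signal, and Bst2, an interferon-inducible gene. Each run is the 250 bases before the start site in RefSeq's annotation of GRCm38.p6, 5′ to 3′ on the strand of the gene. All 9 symbols were matched in that table. Capitals mark the motifs searched, which were GAGGAA (PU.1 type), GAAA and GAAA with any 2 bases between them (the interferon-stimulated response element, ISRE) and TGANTCA (AP-1), each on both strands.

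Batf3, chr1:191098164-191098413, plus strand: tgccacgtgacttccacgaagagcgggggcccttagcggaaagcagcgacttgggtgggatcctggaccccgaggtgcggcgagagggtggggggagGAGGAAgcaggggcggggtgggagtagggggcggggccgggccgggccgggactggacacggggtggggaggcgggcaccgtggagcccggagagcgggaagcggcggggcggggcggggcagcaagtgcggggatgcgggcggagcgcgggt

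Bst2, chr8:71537473-71537722, minus strand: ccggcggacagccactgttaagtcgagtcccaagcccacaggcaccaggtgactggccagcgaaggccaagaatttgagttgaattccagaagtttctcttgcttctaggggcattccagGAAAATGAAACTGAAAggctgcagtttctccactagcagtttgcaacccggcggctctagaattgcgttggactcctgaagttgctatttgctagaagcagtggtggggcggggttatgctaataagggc

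Itgax, chr7:128129300-128129549, plus strand: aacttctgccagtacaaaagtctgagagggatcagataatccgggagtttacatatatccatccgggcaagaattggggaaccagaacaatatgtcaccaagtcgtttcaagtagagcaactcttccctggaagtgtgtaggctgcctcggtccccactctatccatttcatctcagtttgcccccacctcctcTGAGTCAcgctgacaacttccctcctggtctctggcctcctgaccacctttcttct

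The Bst2 window held 2 overlapping ISRE matches, whose first bases lie 130 and 124 bases before the start. An ISRE match was found in 2.98% of 32851 such windows, and in 1 of the 9 dendritic cell genes. The Batf3 window was the only one of the 9 with the PU.1 type motif, which 23.3% of all windows hold. AP-1 matches, found in 6.75% of all windows, lay in the windows of Itgax and Zbtb46. The RefSeq Itgax gene begins at 128129526, inside the window shown for it. The Zbtb46 window, chr2:181424389-181424638, lies wholly within the RefSeq gene (181371009 to 181493262) and not before it. A match is a description of the letters and not evidence of a bound site.

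Before the values, some features of the samples are given, whose part in the results was not tested. In wild-type B cells the B cell genes Ms4a1 and Cd79a measured 6225 to 7905 and 6241 to 7662, and in Eμ-xbp-1s B cells they measured 3397 to 5227 and 2777 to 5550. The T cell receptor subunit Cd3d was at 57.8 to 81.1 in wild-type B cells and at 967.7 to 1496 in Eμ-xbp-1s B cells. RNA of this T cell gene was thus present to a different extent in the bead-selected cells of the 2 groups. MM replicates 4 and 5 stood apart from the other MM arrays, with summed erythroid markers of 13543 and 18731 against 65.3 to 155.4, and summed neutrophil markers of 55724 and 43714 against 845.2 to 1753. Eμ-xbp-1s B cell replicate 3 had summed erythroid markers of 8018, against 663.4 to 1489 in the other 4 of its group, and the lowest B cell (13875) and macrophage and monocyte (6591) sums among them. In bulk RNA, fewer cells of a type and less RNA per cell cannot be told apart.

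Siglech encodes a sialic acid-binding lectin of plasmacytoid dendritic cells that signals through the adaptor DAP12. It stayed below 100 on all 16 arrays, a level at which the study's own filter drops a probe set, so no test was made. The intensities were 77.0, 63.2, 70.2, 52.1 and 76.2 in wild-type B cells, 50.7, 50.6, 27.5, 45.5 and 65.0 in Eμ-xbp-1s B cells, and 53.5, 57.2, 64.4, 73.1, 85.8 and 57.9 in MM. The groups overlap and sit near 50, the floor under which values were not distinguished. The defining surface marker of plasmacytoid dendritic cells was therefore not detected above the filter in any group, including the B220-selected ones.

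Bst2 encodes tetherin, an interferon-inducible membrane protein that is the antigen of the plasmacytoid antibody PDCA-1 and also appears on other cells under interferon. Its intensity was 114.8, 98.4, 69.1, 111.4 and 101.6 in wild-type B cells and 174.6, 146.3, 83.2, 99.1 and 127.3 in Eμ-xbp-1s B cells. The MM arrays spread far wider, at 365.7, 517.9, 314.8, 152.7, 51.9 and 28.1 for replicates 1 to 6. MM replicates 1 to 4 lay above every wild-type value, whereas replicates 5 and 6 lay below every B cell value.

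Ccr9 encodes the receptor for the chemokine CCL25, carried by plasmacytoid dendritic cells and by thymocytes and gut-homing T cells. The brightest of its 5 probe sets read 201.6, 202.3, 231.1, 240.1 and 233.0 in wild-type B cells and 309.9, 363.1, 323.2, 377.9 and 296.3 in Eμ-xbp-1s B cells, without overlap. In MM it read 258.7, 313.9, 298.6, 107.4, 93.4 and 137.3, so that replicates 4 to 6 fell below both B cell groups. The suffix of this probe set marks probes that can match other transcripts as well. The other Ccr9 probe set above the filter did not follow it, at 100.8 to 147.0 in wild-type B cells, 118.8 to 141.8 in Eμ-xbp-1s B cells and 135.8 to 168.4 in MM. The remaining 3 were not above the filter.

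Flt3, the receptor that drives dendritic cell development from progenitors, measured 56.9, 66.1, 96.6, 79.2 and 55.1 in wild-type B cells. In Eμ-xbp-1s B cells it measured 182.7, 140.0, 72.1, 164.8 and 111.1, with replicate 3 inside the wild-type range. In MM it measured 179.8, 147.7, 126.2, 53.2, 37.7 and 19.2. The 3 highest MM values lay above all wild-type values and the 2 lowest lay under the floor.

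Itgax, which encodes the integrin alpha chain CD11c, was above 100 on all 16 arrays. It read 143.6, 153.0, 242.3, 264.9 and 169.7 in wild-type B cells and 396.6, 386.6, 321.3, 390.4 and 722.1 in Eμ-xbp-1s B cells. The lowest Eμ-xbp-1s B cell value exceeded the highest wild-type value. In MM, replicates 1 to 4 read 600.5, 810.6, 643.0 and 615.7, while replicates 5 and 6 read 117.9 and 117.7, below all 10 B cell arrays. CD11c is also found on macrophages, NK cells and some activated lymphocytes.

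Batf3, the AP-1 family factor required for type 1 conventional dendritic cells, read 67.2, 72.6, 68.5, 91.2 and 76.4 in wild-type B cells. Every Eμ-xbp-1s B cell array was higher, at 154.5, 124.7, 201.9, 153.5 and 244.9. MM arrays ran from 343.3 in replicate 3 to 72.1 in replicate 6, with 172.8, 169.8, 120.8 and 91.2 in replicates 1, 2, 4 and 5. Batf3 is also induced in activated T cells.

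Zbtb46, a transcription factor that is largely restricted to conventional dendritic cells within the immune system, differed little between the B cell groups at its brightest probe set. Its brightest of 4 probe sets read 67.8, 81.8, 118.9, 102.1 and 111.0 in wild-type B cells, and 96.5, 76.3, 135.7, 86.7 and 129.7 in Eμ-xbp-1s B cells. In MM it read 121.2, 116.6, 111.9, 134.6, 176.9 and 149.4. At this probe set the 2 highest MM values came from replicates 5 and 6, in which Itgax, Flt3 and Bst2 had their 2 lowest. None of the other Zbtb46 probe sets shared this order. A dimmer one, under 100 on every array, had its 2 lowest MM values in those replicates (41.4 and 56.0). In the remaining probe sets these replicates read 90.5 and 110.8 within 86.8 to 111.8, and 62.3 and 79.1 within 28.4 to 134.6.

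Cd209a encodes the C-type lectin DC-SIGN of type 2 conventional and monocyte-derived dendritic cells. Wild-type arrays gave 37.9 to 72.8, and the arrays of Eμ-xbp-1s B cells gave 53.9 to 109.7. In MM, 5 arrays lay between 36.5 and 62.0 and replicate 6 read 123.1. The gene was above 100 on 2 of 16 arrays and entered no test.

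**Figure D1:**
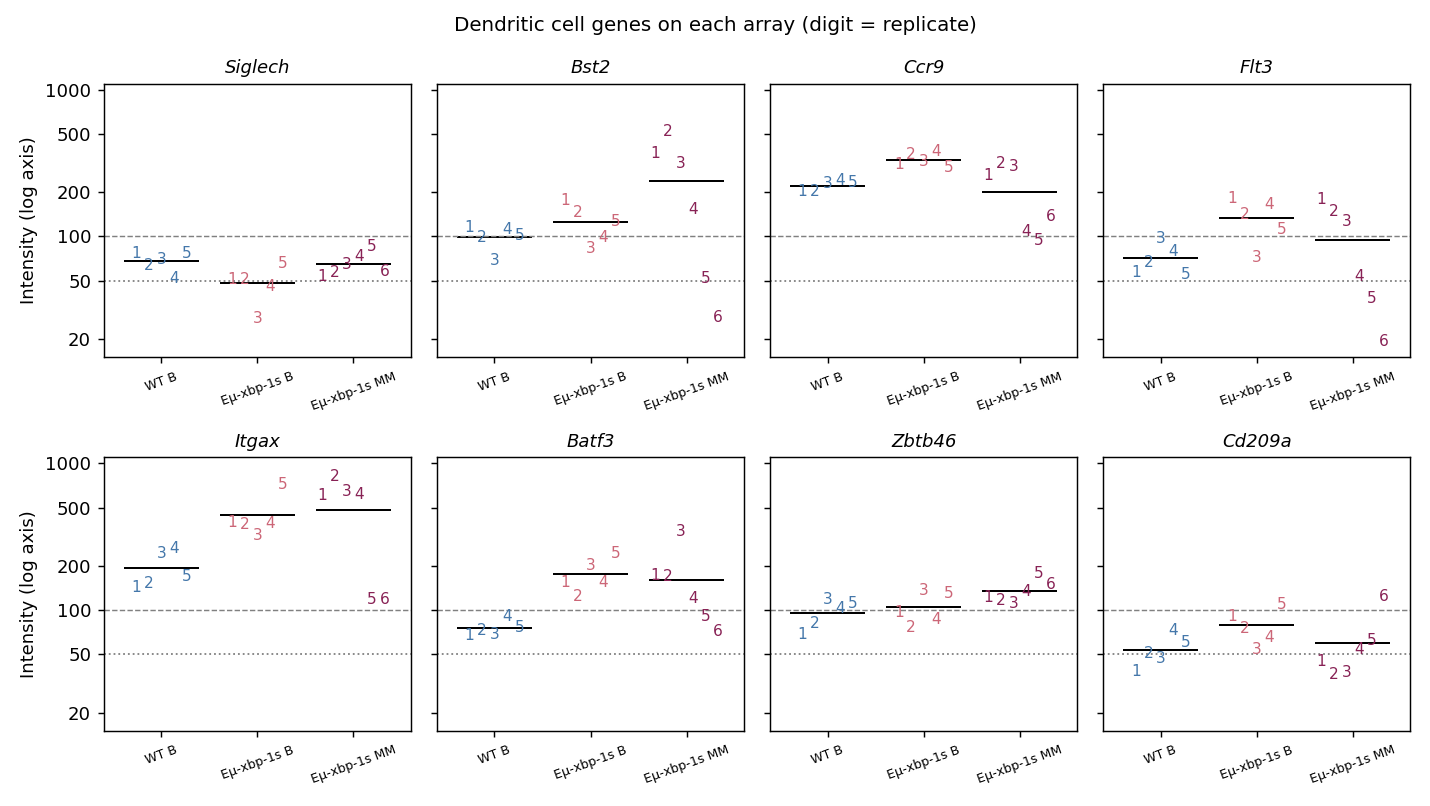
Intensity (log axis) of the brightest probe set of each of the 8 dendritic cell genes on each of the 16 arrays, with the digit giving the replicate, the bar the group mean, the dotted line the floor of 50 and the dashed line 100. Batf3, Ccr9 and Itgax separate Eμ-xbp-1s B cells from wild-type B cells, Siglech stays under 100 throughout, and Itgax in MM splits between replicates 1 to 4 (600.5 to 810.6) and replicates 5 and 6 (117.9 and 117.7).

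The comparison of Eμ-xbp-1s with wild-type B cells asks what the transgene is associated with before disease. Of the 6 dendritic cell genes tested, 1 rose, none fell and 5 did not pass at an adjusted p under 0.01 in limma. In the same comparison 2.75% of all 20596 probe sets tested rose and 0.481% fell. At an unadjusted p under 0.05, 4 of the 6 were higher and 0 lower, where 10.6% and 9.47% of all probe sets were. Batf3 and Flt3 were under 100 on every wild-type array and entered the test through their transgenic values, so the count says nothing of the genes as a class. The median log2 difference of the other 4 was 0.46, beside -0.05 over all probe sets.

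Batf3 was the gene that rose. Its mean intensity went from 75.2 ± 9.68 to 175.9 ± 47.5 (SD, n = 5 each), a 2.29-fold difference on the fitted scale (log2 1.19, SE 0.18, adjusted p = 0.00157), and 5 of 5 arrays were higher. It passed without each of the 10 arrays in turn, with adjusted p between 0.000912 and 0.00675. The call was lost when all 3 groups shared a single fit (adjusted p = 0.0723), when no filter on low values was applied (adjusted p = 0.0134), and with a floor of 100, under which the log2 difference was 0.77 (adjusted p = 0.0167).

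Itgax differed by as much and missed the threshold. Its mean was 194.7 ± 55.1 in wild-type and 443.4 ± 158.8 in Eμ-xbp-1s B cells (SD, n = 5 each), with a log2 difference of 1.17 (SE 0.24, 95% interval 0.65 to 1.70, adjusted p = 0.0113). Without Eμ-xbp-1s replicate 3 the adjusted p was 0.0097, past the threshold. For Ccr9 the means were 221.6 ± 18.3 and 334.1 ± 35.0, with a log2 difference of 0.59 (SE 0.12, 95% interval 0.33 to 0.85, adjusted p = 0.0109). Its other tested probe set gave 0.04 (SE 0.13, adjusted p = 0.909), so the difference belongs to a single probe set of the gene. Values of Batf3, Itgax and Ccr9 did not overlap between the groups, which was so for 5.6% of all probe sets in that direction.

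Flt3 was at 70.8 ± 17.3 and 134.1 ± 43.9, with a log2 difference of 0.88 (SE 0.25, 95% interval 0.33 to 1.43, adjusted p = 0.0584). Without Eμ-xbp-1s replicate 3, the array with the lowest Flt3 of its group, the log2 difference was 1.09 and the adjusted p 0.00755. Bst2 differed by 0.32 (SE 0.21, 95% interval -0.15 to 0.79, adjusted p = 0.454). Zbtb46 differed by 0.12 (SE 0.21, 95% interval -0.33 to 0.57, adjusted p = 0.812). For the last gene a difference larger than 0.57 in either direction lies outside the interval, while smaller ones cannot be told from 0 with 5 arrays a group.

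**Figure D2:**
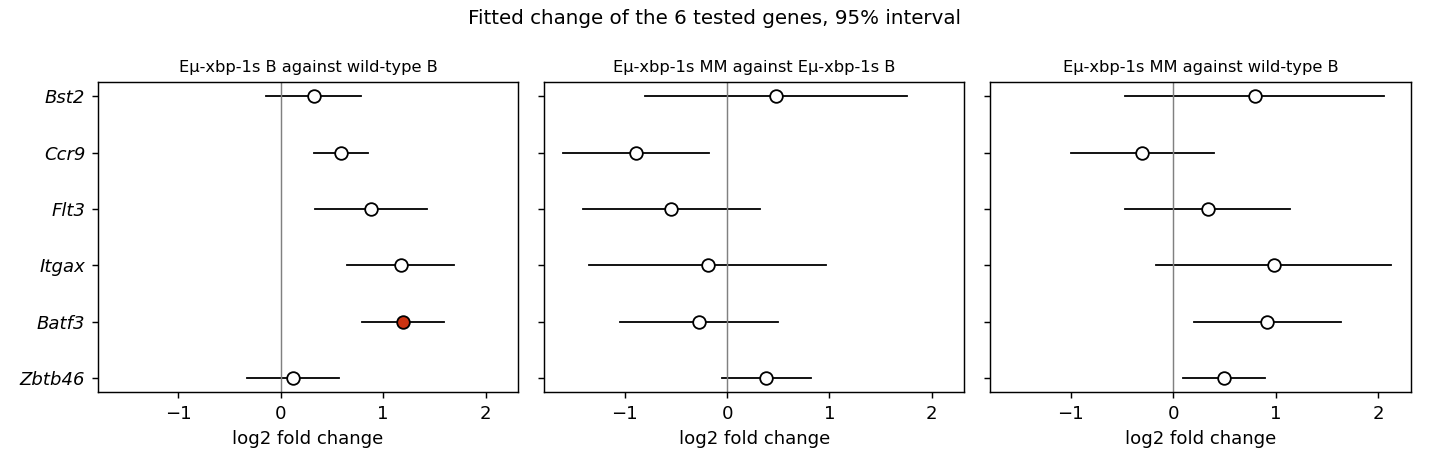
Fitted log2 fold change (x axis) of the 6 tested dendritic cell genes in the 3 comparisons, with points for the estimate, lines for the 95% interval, and a filled point where the adjusted p was under 0.01. Batf3 in Eμ-xbp-1s against wild-type B cells (log2 1.19) is the only filled point, and the intervals are wider in the comparisons of MM.

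The markers of other cell types moved in the same comparison. All 7 tested T cell markers rose, with a median log2 difference of 3.62, and their summed intensity went from 377.9 to 558.1 in wild-type B cells to between 5006 and 6122. Of the NK cell markers 5 of 6 rose, of the neutrophil markers 5 of 8, of the macrophage and monocyte markers 3 of 8 and of the erythroid markers 1 of 2. Klre1, Eomes, Camp, Ltf, Mmp8, Alas2 and all tested T cell markers but Cd3e were under 100 on every wild-type array. They were tested only through their transgenic values, so these counts and the T cell median say nothing of the markers as a class. None of the 9 B cell markers passed, although each of the 9 was lower when p was left unadjusted (under 0.05). Their median was -0.81, with summed intensities of 34201 to 38284 against 13875 to 29440. None of the 5 plasma cell markers and the 1 stromal marker tested passed. Among the Eμ-xbp-1s B cell arrays, replicate 5 had the highest Itgax, Batf3 and Cd209a, and the highest NK cell (3288) and macrophage and monocyte (13425) sums. Its neutrophil sum was 28178, against 9570 to 12014 in the other 4. The part of these cells in the dendritic cell values was not tested.

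**Figure D3:**
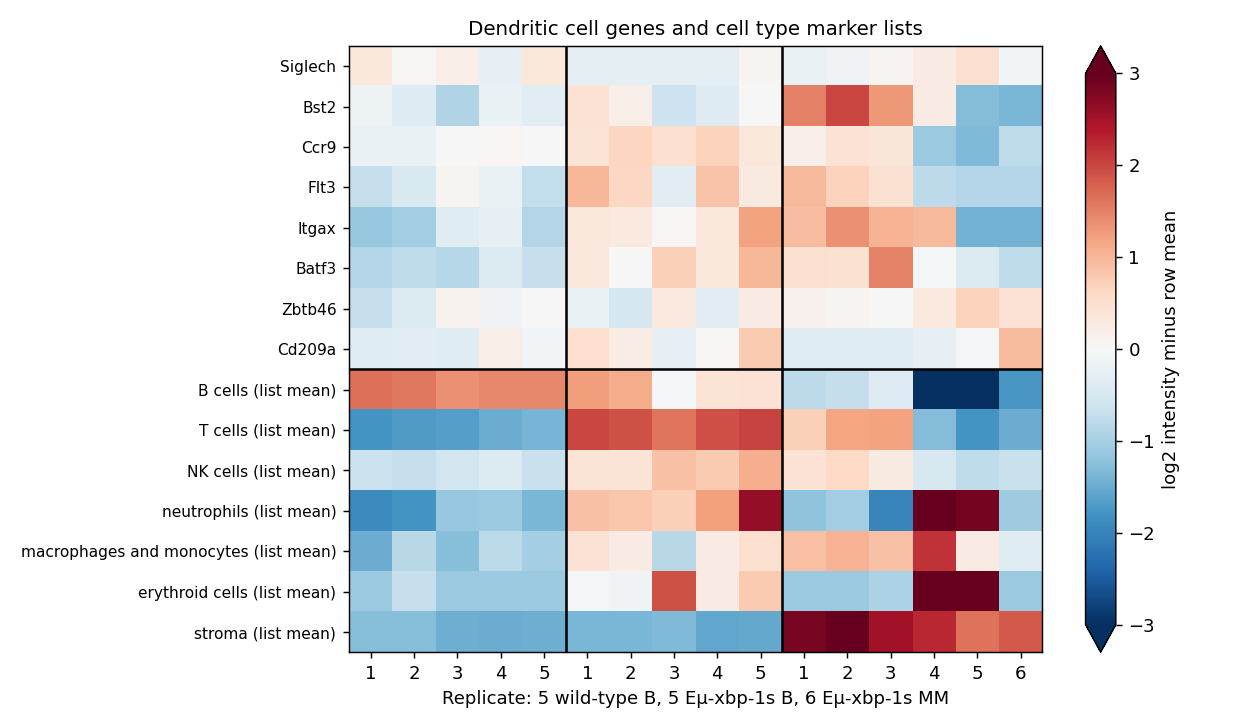
Colour gives log2 intensity (floor of 50 for the genes) minus the row mean over the 16 arrays for the 8 dendritic cell genes and, below the line, the mean of 7 marker lists of other cell types, with columns for 5 wild-type B cell, 5 Eμ-xbp-1s B cell and 6 MM arrays. T cell markers are high in all Eμ-xbp-1s B cell arrays and in MM replicates 1 to 3, neutrophil markers in all Eμ-xbp-1s B cell arrays and most in MM replicates 4 and 5, and erythroid markers in MM replicates 4 and 5 and, less so, in Eμ-xbp-1s B cell replicate 3.

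The partners of these genes are the adaptor through which Siglech signals, the beta chain that pairs with CD11c, and the ligands of Ccr9 and Flt3. Tyrobp, which encodes DAP12 and serves many receptors of myeloid and NK cells, rose 2.83-fold, from 824.5 to 2343 (adjusted p = 0.000273). Itgb2, the beta chain CD18 of all leukocyte beta-2 integrins, went from 1459 to 2417, a log2 difference of 0.72 that missed the threshold (adjusted p = 0.0126) and passed without Eμ-xbp-1s replicate 3 (adjusted p = 0.00392). Ccl25, the ligand of Ccr9, lay between 52.7 and 93.0 on all 16 arrays and was not tested. The ligand Flt3l was not analysed here.

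Other genes of the plasmacytoid dendritic cell did not pass in either direction. Of the 11 tested, 0 passed in limma, while by unadjusted p (under 0.05) 1 was higher and 4 were lower. Their median log2 difference was -0.27. Several of them are B cell genes too, such as Tcf4 (log2 -0.28), Spib (log2 -0.52), Irf8 (log2 -0.50) and Ly6d (log2 -0.79). Irf7, which amplifies the interferon response, was at 77.0 to 113.8 in wild-type and 109.5 to 182.3 in Eμ-xbp-1s B cells (log2 0.62, adjusted p = 0.059).

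Of 9 other genes of type 1 conventional dendritic cells, 4 rose and none fell, where 2.75% of all probe sets rose, and the median log2 difference was 0.86. Whether this share differs from that of the other dendritic cell lists was not tested. Snx22, whose value is the median of 0.86, was under 100 on every wild-type array and was tested only through its transgenic values. Id2, an inhibitor of E proteins needed by these cells and by innate lymphocytes, rose 4.65-fold (adjusted p = 4.35e-06). Itgae, the integrin CD103, rose 2.80-fold (adjusted p = 5.36e-05), Cadm1, an adhesion molecule, rose 2.38-fold (adjusted p = 0.00196), and Cd8a rose 2.09-fold (adjusted p = 0.00214). Each of these passed without any single array, whereas in a single fit of all 3 groups Itgae, Cadm1 and Cd8a did not pass (adjusted p = 0.0847, 0.0541 and 0.0668), and with no filter on low values Cadm1 and Cd8a did not (adjusted p = 0.0173 and 0.0143). As the mean of all probe sets of the gene, the log2 difference was 0.76 in place of 1.25 for Cadm1 and 0.99 in place of 1.48 for Itgae. Cd8a and Itgae are T cell genes as well, and Id2 is high in NK cells. Xcr1, the chemokine receptor that defines the type 1 cells, did not pass, at 75.3 to 141.8 in wild-type B cells against 83.1 to 195.1. Tlr3, their sensor of double-stranded RNA, did not pass either, at 100.4 to 156.7 against 83.3 to 139.5.

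Of 6 tested genes of type 2 conventional dendritic cells, 0 passed, while by unadjusted p (under 0.05) 3 were higher and 1 lower, with a median of 0.40. Itgam, among those higher, was under 100 on every wild-type array and was tested only through its transgenic values. Of 8 maturation and migration genes 1 rose, which was Fscn1, the actin bundler of mature dendritic cells (4.46-fold, adjusted p = 0.00063), and 7 did not pass, with a median of -0.05. Of 8 development factors 1 rose, which was Notch1 (log2 1.32, adjusted p = 0.00588), and 7 did not pass, with a median of 0.12. Of 6 interferon-stimulated genes 1 rose, which was Ifit2 (log2 0.96, adjusted p = 0.00395), and 5 did not pass, with a median of 0.48. Ifit2 was under 100 on every wild-type array and was tested only through its transgenic values. Notch1 passed in 3 and Ifit2 in 4 of the 10 fits that each left out an array. In a single fit of all 3 groups Fscn1, Notch1 and Ifit2 did not pass (adjusted p = 0.23, 0.0303 and 0.112), and nor did they with no filter on low values (adjusted p = 0.0128, 0.0442 and 0.0207). Notch1 missed the threshold after quantile normalization (adjusted p = 0.0115), and with a floor of 100 the difference of Ifit2 was 0.31 (adjusted p = 0.0858). Fscn1 differed by 0.71 as the mean of its probe sets, in place of 2.16.

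**Figure D4:**
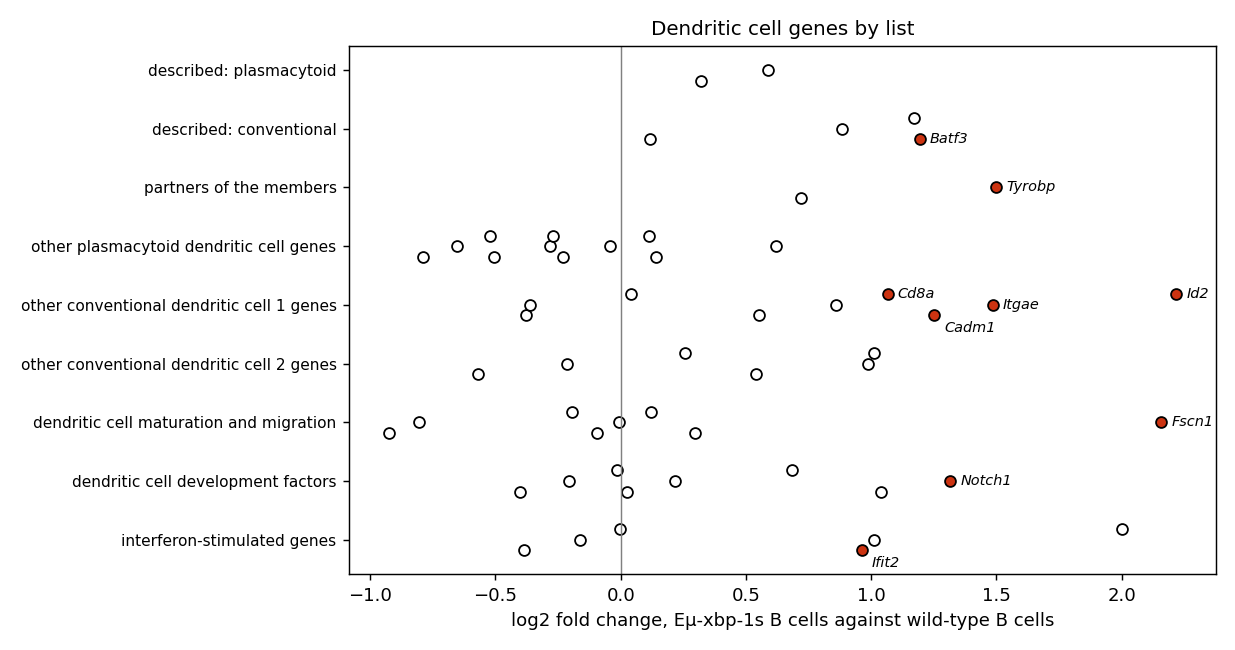
Fitted log2 fold change of single genes in Eμ-xbp-1s against wild-type B cells (x axis) by list (y axis), with the described plasmacytoid and conventional genes in the upper 2 lists and filled, labelled points where the adjusted p was under 0.01. The filled points are Batf3, Tyrobp, Cadm1, Itgae, Cd8a, Id2, Fscn1, Notch1 and Ifit2, and none lies among the other plasmacytoid dendritic cell genes.

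The comparison of MM with Eμ-xbp-1s B cells asks what changes between the transgenic cells before disease and the tumors. None of the 6 tested dendritic cell genes passed in limma, where 1.28% of all 22194 probe sets tested were higher and 1.91% lower. By unadjusted p (under 0.05), 0 were higher and 1, Ccr9, was lower (11.4% and 15.2% of all probe sets). The median log2 difference was -0.23, beside 0.00 over all probe sets. Ccr9 went from 334.1 ± 35.0 to 201.6 ± 99.98 (SD, n = 5 and 6), with a log2 difference of -0.89 (95% interval -1.60 to -0.18, adjusted p = 0.104), and 6 of 6 MM arrays lay below the median of the B cells. The other tested Ccr9 probe set differed by 0.24 (adjusted p = 0.297), and the mean of all its probe sets by -0.07.

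For the other genes in this comparison the spread of the MM arrays was wide. Bst2 was at 126.1 ± 36.5 and 238.5 ± 193.1 (log2 0.48, 95% interval -0.81 to 1.76, adjusted p = 0.645), and leaving out single arrays moved the log2 difference between 0.15 and 0.83. Itgax was at 443.4 ± 158.8 and 484.2 ± 293.6 (log2 -0.19, 95% interval -1.35 to 0.97, adjusted p = 0.852), and its sign turned without any of Eμ-xbp-1s replicate 5 (0.00), MM replicate 5 (0.14) or MM replicate 6 (0.14). Batf3 was at 175.9 ± 47.5 and 161.7 ± 97.8 (log2 -0.27, adjusted p = 0.661, and from -0.53 to -0.08 without single arrays). Flt3 was at 134.1 ± 43.9 and 94.0 ± 65.9 (log2 -0.55, adjusted p = 0.411). Zbtb46 was at 105.0 ± 26.4 and 135.1 ± 24.6 (log2 0.38, adjusted p = 0.247), with 6 of 6 MM arrays above the median of the B cells.

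The comparison of MM with wild-type B cells shares its MM arrays with the previous one and its B cells with the one before, so its values are set beside theirs without a test of likeness. None of the 6 genes passed, where 3.95% of 21894 probe sets rose and 5.65% fell. At an unadjusted p under 0.05, 2 were higher and 0 lower (15.1% and 20.2% of all probe sets). These were Batf3 (log2 0.92, 95% interval 0.20 to 1.64, adjusted p = 0.0672) and Zbtb46 (log2 0.50, 95% interval 0.10 to 0.90, adjusted p = 0.0742). A further Zbtb46 probe set went from 65.4 to 100.7 (log2 0.61, adjusted p = 0.0206), with 6 of 6 MM arrays above the wild-type median in each, but it was under 100 on every wild-type array and was tested only through its MM values. Itgax differed by 0.98 (95% interval -0.17 to 2.13, adjusted p = 0.209), Bst2 by 0.80 (adjusted p = 0.358), Flt3 by 0.34 (adjusted p = 0.552) and Ccr9 by -0.30 (adjusted p = 0.542). Batf3 and Flt3, under 100 on every wild-type array, entered this test through MM as well, so the count of 2 is no result about the genes as a class. The median of the other 4 was 0.65, beside -0.03 over all probe sets.

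Within the MM group the genes did not run alike, and values of other cell types ran beside them. Replicates 1 to 3 had the 3 highest values of Bst2, Flt3, Batf3 and the brightest Ccr9 probe set. The other Ccr9 probe set above the filter was highest in replicate 6 (168.4). Replicates 5 and 6 had the 2 lowest values of Bst2, Flt3, Itgax and Batf3. The summed T cell markers were 2571, 3637 and 3513 in replicates 1 to 3 and 634.1, 348.6 and 475.1 in replicates 4 to 6. The summed macrophage and monocyte markers were 24829, 24943, 23421 and 37496 in replicates 1 to 4 and 11050 and 8692 in replicates 5 and 6, and the B cell markers were 14277, 13399 and 13431 in replicates 1 to 3, 1547 and 737.5 in replicates 4 and 5 and 6806 in replicate 6. NK cell markers summed to 2068 to 2871 in replicates 1 to 3 and to 739.2 to 1058 in the others. Stromal markers summed to 4916 to 12185 in MM, against 324.5 to 493.0 in wild-type and 327.0 to 473.1 in Eμ-xbp-1s B cells, and plasma cell markers to 2221 to 12319 in MM, against 8339 to 9674 and 7782 to 11264. The part of these cells in the dendritic cell values was not tested.

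Against Eμ-xbp-1s B cells, 6 of 7 stromal markers were higher in MM, 2 of 9 B cell markers and 1 of 6 NK cell markers were lower, and none of 7 T cell markers passed, all 7 being lower at an unadjusted p under 0.05. Of the stromal markers only Col1a1 exceeded 100 on any Eμ-xbp-1s B cell array, so the others were tested only through MM. The NK cell marker Klre1 was under 100 on every MM array and was tested only through the B cells. None of 8 neutrophil, 8 macrophage and monocyte, 5 plasma cell and 3 erythroid markers passed (1, a macrophage and monocyte marker, was higher at an unadjusted p under 0.05). Against wild-type B cells, 6 of 7 stromal and 2 of 8 macrophage and monocyte markers were higher, and 5 of 9 B cell markers lower. None of 7 T cell, 5 NK cell, 5 neutrophil, 5 plasma cell and 1 erythroid markers passed (5 T cell and 1 NK cell markers were higher at an unadjusted p under 0.05). Of the stromal markers only Col1a1 and Col1a2 exceeded 100 on any wild-type array, and of the T cell markers only Cd3e. The others of both lists were tested only through MM, so the stromal and T cell counts say nothing of the markers as a class.

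The other dendritic cell lists in MM showed few calls. Against Eμ-xbp-1s B cells, 1 of 11 plasmacytoid genes fell, Ly6d (log2 -2.96, adjusted p = 0.00596), and 1 of 8 maturation genes fell, Ccr7, the receptor that takes mature dendritic cells to lymph nodes (250.6 to 1138 in the B cells and 12.7 to 159.7 in MM, 4 of 6 MM arrays under the floor, adjusted p = 0.0012). Ly6d and Ccr7 are both highly expressed by B cells. The call of Ly6d held in 5 of the 11 fits that each left out an array and was lost without MM replicates 4 and 5 together (adjusted p = 0.0148). With no filter on low values neither gene passed (adjusted p = 0.0339 and 0.011). None of 2 partners, 9 type 1 genes, 6 type 2 genes, 10 development factors and 8 interferon-stimulated genes passed. At an unadjusted p under 0.05, 1 type 1 gene was lower, and 2 type 2 genes were higher and 2 lower. By the same measure 2 development factors were higher and 1 lower, and 1 interferon-stimulated gene was higher. Of all probe sets 11.4% were higher and 15.2% lower. Nfil3, a development factor, was under 100 on every Eμ-xbp-1s B cell array and was tested only through MM. The counts and the median of the development factors therefore say nothing of them as a class. The medians were -0.25 for the plasmacytoid, -0.49 for the type 1, 0.31 for the type 2, -0.83 for the maturation, 0.05 for the development and 0.13 for the interferon-stimulated genes.

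Against wild-type B cells, Tyrobp rose 2.30-fold (adjusted p = 0.00896, passing in 3 of 11 fits that each left out an array) and Itgb2 differed by 0.06 (adjusted p = 0.935). Ly6d fell (log2 -3.75, adjusted p = 0.000362), 1 of 11 plasmacytoid genes. Id2 rose (log2 2.11, adjusted p = 5.26e-05), 1 of 9 type 1 genes. Of 5 type 2 genes, Ltbr (log2 0.91) and Esam (log2 1.26) rose, and Irf4 (log2 -2.19) and Notch2 (log2 -2.23) fell, the last pair being genes of B cells as well. Ccr7 fell, 1 of 8 maturation genes. Csf2ra, the GM-CSF receptor alpha chain, rose (log2 1.25), 1 of 9 development factors, and Oasl2 rose (log2 1.32), 1 of 8 interferon-stimulated genes. Of these calls, Ly6d, Id2, Irf4 and Ccr7 held in all 11 fits that each left out an array, while Csf2ra held in 10, Ltbr in 8, Oasl2 in 7, Notch2 in 4 and Esam in 2. With no filter on low values Tyrobp, Irf4, Notch2, Esam, Csf2ra and Oasl2 did not pass (adjusted p from 0.0123 to 0.0345), and Tyrobp did not with a floor of 100 or after median scaling (adjusted p = 0.0105 and 0.0159). Esam did not pass without MM replicates 4 and 5 together (adjusted p = 0.017). As the mean of their probe sets Id2 and Notch2 differed by 1.38 and -1.04. The medians were -0.14 for the plasmacytoid, 0.48 for the type 1 and 0.91 for the type 2 genes. They were -1.12 for the maturation, 0.11 for the development and 0.54 for the interferon-stimulated genes. Ifit1, Ifit2, Usp18, Snx22 and Nfil3 were under 100 on every wild-type array and were tested only through MM. The type 1, development and interferon-stimulated counts and medians therefore say nothing of those genes as a class.

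The genes whose pattern over the 16 arrays was closest to each dendritic cell gene were found among 11065 named genes by the root mean square difference of log2 values centred on their own means. For Bst2 these were Pfkp (0.32) and Irf7 (0.35), for an SD of Bst2 of 0.95. For Ccr9 they were Rad1 (0.23) and Nfatc2 (0.24), and for Flt3 they were Ehd3 (0.31) and Bhlhb9 (0.33). Itgax was closest to Glipr1 (0.37) and Mpeg1 (0.38), and Batf3 to Tnfrsf4 (0.29) and Tmem51 (0.32). Zbtb46, Siglech and Cd209a varied too little or were too dim to be matched. The arrays of a B cell group share tissue and selection, while the labels name no cell sort for MM. These matches are descriptions of likeness over 16 points in 3 groups.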

How the data were processed

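Gene expression was measured on 16 Affymetrix arrays: 5 of wild-type and 5 of Eμ-xbp-1s B220+ splenic B cells, and 6 of Eμ-xbp-1s MM. The labels gave groups and replicate numbers. The authors used dChip to normalize all arrays to the array of median brightness and to fit its model of perfect match minus mismatch signal, and the deposited values are 1 linear intensity per probe set and array. Subtraction of mismatch signal makes values near 50 imprecise, and the number of arrays limits the precision. The median intensity of an array was 69.0 to 82.9, and no 2 arrays of the same group were near-identical. Arrays of different groups were not compared in this way. For the MM arrays the labels do not say that each came from a separate mouse, so their p-values reflect only sample-to-sample spread, which may be technical.

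Of 45101 probe sets, the platform annotation named 1 gene for 34958 (34754 matched to a current symbol by gene identifier) and several for 932, and 9211 are not listed in it. The 64 controls were left out. Each gene is represented by the probe set that was brightest on average over the 16 arrays. Intensities under 50 were set to 50. The test (limma 3.58.1, R 4.3.3, lmFit and eBayes on log2 intensity, with a fit for each pair of groups) covered probe sets that exceeded 100 on over 20% of the arrays in a comparison, with Benjamini-Hochberg adjusted p under 0.01. The study used SAM at a false discovery rate, for which limma stands in here. On simulated data made from the real means and spreads, log2 differences of 1 were recovered in 55%, 20% and 33% of cases and those of 2 in 94%, 77% and 82%, for Eμ-xbp-1s against wild-type B cells (20596 probe sets), MM against Eμ-xbp-1s (22194) and MM against wild-type (21894), with 2, 0 and 2 false calls.

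The dendritic cell genes, the marker lists and the rule for the genes named were chosen with earlier results of these data known. The rule names all 9 dendritic cell genes and their partners, up to 4 changed genes of each other dendritic cell list, counts for markers of other cells, and, for genes with an SD of log2 over 0.5, the 2 most similar genes. Genes and values that check a group against its label, and the B cell genes among the plasmacytoid list, were named after their values were seen. The same holds for the list genes given as tested only through a single group. Alternatives changed the floor, the pseudocount, the filters, the normalization, the variance model, the groups in the fit, array weights, the replicate block, the summary of probe sets, the threshold and the arrays included.

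Replicate numbers recur in all groups. Deviations of same-numbered wild-type and Eμ-xbp-1s arrays from their group means correlated at 0.498, 0.519, 0.21, 0.171 and 0.496 across probe sets. All were above 0.1, and by that rule the arrays were taken as pairs in the block alternative, since no source used here states a pairing. Only for replicate 2 was the same-numbered wild-type array the best correlated of its group, so these values do not establish pairs. The reported fits did not use the replicate numbers. For MM the correlations ran from -0.27 to 0.45, and those arrays were not taken as pairs. Summaries used pandas 2.3.3 and numpy 2.4.6 in Python 3.11.15, and plots matplotlib 3.10.9.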

Additional observations from a re-analysis of the deposited data

Results flagged for a closer look

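Of 24 groups of values (8 genes in 3 groups), 3 held an array far from the others, where chance gives about 1 in 20, or 1.2. Itgax read 722.1 in Eμ-xbp-1s B cell replicate 5, against 321.3 to 396.6 in the other 4 arrays of that group. That array also had the highest summed neutrophil and NK cell markers of its group. Its macrophage and monocyte sum was the highest as well, at 13425 against 6591 to 12478 in the other 4. The part of these cells in the Itgax value was not tested. Siglech read 65.0 in the same array, against 27.5 to 50.7 in the others, of which 2 were under the floor of 50, so that this gap rests on values the array does not resolve. Cd209a read 123.1 in MM replicate 6, against 36.5 to 62.0 in the other 5 MM arrays.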

How the results depend on the processing

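In Eμ-xbp-1s against wild-type B cells the number of dendritic cell genes that rose was 1 in the reported fit. It was 2 with a pseudocount of 50 in place of the floor (Ccr9 and Batf3) and 2 with an added filter on SD over 0.3 (Itgax and Batf3), 3 at an adjusted p under 0.05 (with Ccr9 and Itgax), 4 with array weights (with Flt3 as well) and 0 with all 3 groups in a single fit. Leaving out each array gave 1 to 3. The single fit takes the MM arrays into its estimate of the spread and called 217 probe sets in all against 666, while array weights called 1909. With a floor of 100 and with no filter the gene called was Ccr9 and not Batf3. The mean over all Ccr9 probe sets differed by 0.12 (adjusted p = 0.384). Zbtb46 turned to -0.25 with array weights and, without single arrays, ran from -0.0015 (wild-type replicate 1) to 0.22. In MM against Eμ-xbp-1s B cells, array weights raised the count from 0 to 1 (Bst2), and leaving out each array gave 0. Batf3 turned to 0.35 with array weights, and Itgax to 0.64 with array weights, 0.14 with the replicate block (a fit that drops MM replicate 6, which has no partner, and gives the same log2 value as leaving that array out), 0.043 without MM replicates 4 and 5 together, while it ran from -0.41 to 0.14 without single arrays. In MM against wild-type B cells, array weights raised the count from 0 to 4 (Bst2, Flt3, Itgax and Batf3), and Ccr9 turned to 0.21 with array weights, 0.053 as the mean of its probe sets and 0.12 without MM replicates 4 and 5. Array weights called 4538 and 5531 probe sets in the comparisons of MM, against 708 and 2100, and the cause of these changes was not tested.

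Scaling each array to the same median moved the median log2 difference of all probe sets in MM against wild-type B cells from -0.03 to -0.14, and the share of calls that were higher from 41.1% to 24.9% (from 40.3% to 24.0% in MM against Eμ-xbp-1s B cells). It turned the sign of none of the dendritic cell genes tested. With the replicate number as a block, the comparison of Eμ-xbp-1s with wild-type B cells called 810 probe sets against 666, Batf3 passed (adjusted p = 0.00288), and no call of a dendritic cell gene changed in any comparison. In the comparisons of MM, whose numbers are not taken as pairs, the block, which also drops MM replicate 6, called 367 and 1692 probe sets, where the fits without replicate 6 and without a block called 886 and 2610 and the reported fits 708 and 2100. Against Eμ-xbp-1s B cells it left Ly6d and Ccr7 at adjusted p of 0.0112 and 0.0154, and against wild-type B cells Ltbr and Oasl2 at 0.0119 and 0.023.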
